A study of Homo sapiens with 6 samples.

Results

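The aryl hydrocarbon receptor group comprised 9 genes: the receptor AHR, its partner ARNT, the feedback inhibitors AHRR and TIPARP, and the enzyme genes CYP1A1, CYP1A2, CYP1B1, NQO1 and ALDH3A1. The genes were chosen by name, with their measured difference between fostamatinib and DMSO in these same samples already known, so that difference is given below as a description and carries no p-value. Of the 9 genes, 7 were analysed, of 16305 genes in all, and each of the 7 had passed the filter on low read counts applied by the authors. CYP1A2 and ALDH3A1 were not analysed here. RNA-seq was performed on Huh7SR cells (Huh7-R in the study), a pool selected for sorafenib resistance from the hepatocellular carcinoma cell line Huh7, with sorafenib withdrawn before the experiments. 3 samples received fostamatinib, an inhibitor of spleen tyrosine kinase, at 2 µM for 24 h. The other 3 received the solvent DMSO for 24 h, for which the labels also write 2 µM. The study did not detect this kinase as protein in Huh7 cells and proposes that the drug acts through other targets in such cells. The comparison asked which transcripts differ in resistant cells given fostamatinib. The treatments were applied in triplicate, but the labels do not say whether the replicates were separately passaged cultures. The spread behind the p-values is therefore only that between these samples, which may be technical. The model also shares this spread across genes, so a very small p-value does not rest on the 3 samples per group of that gene alone.

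AHR is a ligand-activated transcription factor of the bHLH-PAS family. Without a ligand it is held in the cytoplasm by a complex of HSP90 chaperones with PTGES3 and other co-chaperones. A bound ligand, such as a dioxin, a polycyclic hydrocarbon or a tryptophan metabolite, leads it to the nucleus, where it pairs with ARNT and binds a short DNA motif with the core GCGTG. In liver cells this pathway is best known for switching on CYP1A1 and other enzymes that oxidise or conjugate foreign compounds, and it also switches on its own inhibitors AHRR and TIPARP.

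The samples held 13303451 to 15272737 reads on the listed genes. Log2 values correlated at 0.9879 or more within a group and at 0.9719 or less between groups, and no library stood apart. All 9 hepatocyte markers were detected, and their summed level was 5040 to 5380 CPM (reads scaled to a common library size) with DMSO and 6850 to 7250 CPM with fostamatinib. All 9 were called higher with fostamatinib, from APOB at 0.21 to APOA1 at 3.19 on the log2 scale. Of 12 markers of leukocytes, fibroblasts, endothelium and bile duct cells, 7 were analysed, and their sum was 382 to 396 CPM with DMSO and 474 to 486 CPM with fostamatinib, most of it from KRT19 and COL1A2. Of these 7, 4 were called higher and none lower, while CD14 had means of 5.0 and 4.3 reads. Among all genes 23.3% were called higher and 24.5% lower. The markers thus moved with the treatment, as did the genes below, and their part in the results was not tested. The samples are bulk RNA from a pool of the cell line Huh7, in which more expressing cells and more RNA per cell cannot be told apart.

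The DNA upstream of CYP1A1 and AHRR, the genes with the largest differences, and of TIPARP and NQO1 is shown first, since the receptor acts through it. Starts are those of RefSeq and the bases those of GRCh37 (hg19), on the strand of the gene, and capitals mark the core GCGTG or, where it lies on the other strand, its complement CACGC. The first sequence is the 300 bases with the most cores in the 2000 bases before the CYP1A1 start, from 1270 to 971 bases before it (chr15:75018840-75019139, minus strand). It holds 5 cores. The second is the 250 bases just before the same start (chr15:75017870-75018119, minus strand), with 1 core.
CYP1A1, upstream window: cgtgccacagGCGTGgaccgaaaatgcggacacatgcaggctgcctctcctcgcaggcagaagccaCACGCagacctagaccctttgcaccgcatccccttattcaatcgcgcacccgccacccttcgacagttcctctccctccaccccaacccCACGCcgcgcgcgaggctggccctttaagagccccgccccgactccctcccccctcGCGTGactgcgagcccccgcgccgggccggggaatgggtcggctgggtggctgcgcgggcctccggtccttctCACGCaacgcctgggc
CYP1A1, before the start: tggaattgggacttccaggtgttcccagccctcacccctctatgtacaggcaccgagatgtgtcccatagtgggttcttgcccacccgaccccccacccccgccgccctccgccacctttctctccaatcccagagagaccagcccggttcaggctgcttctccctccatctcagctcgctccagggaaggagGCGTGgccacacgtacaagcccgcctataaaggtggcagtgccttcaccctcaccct
The matching window of TIPARP lay closer to the start, from 361 to 62 bases before it (chr3:156392018-156392317, plus strand), and also held 5 cores. The 250 bases before the AHRR start (chr5:321579-321828, plus strand) held 1 core, 30 bases from the start.
TIPARP, upstream window: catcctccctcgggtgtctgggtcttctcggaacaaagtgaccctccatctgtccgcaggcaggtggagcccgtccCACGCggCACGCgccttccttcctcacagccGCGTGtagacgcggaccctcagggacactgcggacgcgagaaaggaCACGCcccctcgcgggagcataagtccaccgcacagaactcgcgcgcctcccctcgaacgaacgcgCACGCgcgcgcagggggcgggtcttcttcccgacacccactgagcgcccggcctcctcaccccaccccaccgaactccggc
AHRR, before the start: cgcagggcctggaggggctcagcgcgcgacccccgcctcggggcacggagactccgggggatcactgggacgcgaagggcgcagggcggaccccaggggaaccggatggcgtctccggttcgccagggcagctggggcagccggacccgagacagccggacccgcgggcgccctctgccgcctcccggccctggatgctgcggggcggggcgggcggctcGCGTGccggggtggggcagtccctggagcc
NQO1 is known as a target of the oxidant sensor NRF2 as well as of AHR. Its sequence is shown for the antioxidant motif TGACNNNGC, in capitals, 455 bases before the start (chr16:69760884-69760944, minus strand).
NQO1, around the antioxidant motif: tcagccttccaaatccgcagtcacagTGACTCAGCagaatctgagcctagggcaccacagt

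Counted on both strands, the 2000 bases before the start held 11 cores in CYP1A1, 7 in TIPARP, 6 in ARNT, 4 in AHRR, 3 in NQO1, 1 in CYP1A2 and 0 in AHR. Among 15181 protein-coding promoters placed on GRCh37, 84.0% held at least 1 core in this window, the median was 2 and the 95th percentile was 7. A count of 11 or more was found in 0.665% of the promoters, and a count of 7 or more in 6.56%. The longer motif TNGCGTG, which includes the core, was found 5 times before CYP1A1, 2 times before ARNT and once each before AHRR and TIPARP. CYP1A1 was 1 of 6 promoters, or 0.0395%, with 5 or more. The upstream DNA of CYP1A1 was therefore dense in the letters of the motif relative to other promoters, while that of NQO1 and AHR was not. The antioxidant motif was found in 52.1% of all 2000-base windows, so its presence before NQO1 was a common feature. A match of letters is not a site shown to be bound.

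**Figure D1:**
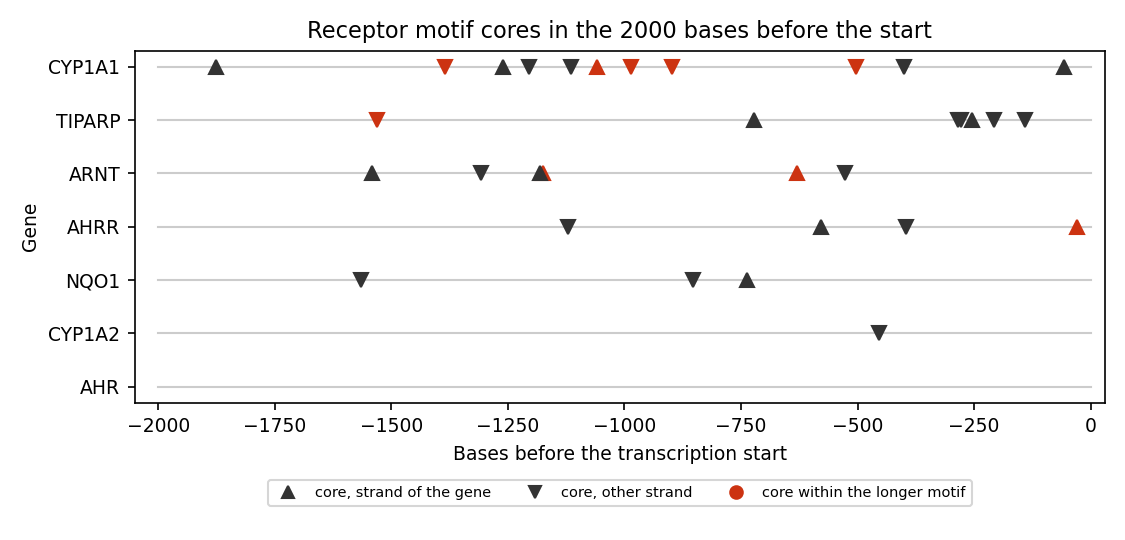
Positions of the GCGTG core in the 2000 bases before the RefSeq start of 7 genes of the receptor group. The x axis gives bases before the start, triangles pointing up lie on the strand of the gene and triangles pointing down on the other strand, and red marks cores within the longer motif TNGCGTG. CYP1A1 has 11 cores, 5 of them red, and AHR has 0.

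CYP1A1 was the gene of the group with the largest difference between the treatments, AHRR came next, and AHR was the only one with a lower level after fostamatinib. In the linear model fitted with limma across all genes, 6 of the 7 genes were called higher and 1 lower at an adjusted p under 0.05. Over all genes the same calls were made for 23.3% (higher) and 24.5% (lower). A rise of more than 2-fold was called for 2 of the 7 genes and for 3.85% of all genes. The 3 fostamatinib samples lay above the 3 DMSO samples for 6 genes, which held for 26.8% of all genes, and below them for 1 gene, which held for 27.4%. The median log2 fold change was 0.33 over the 7 genes and 0.002 over all genes. These counts describe the difference with which the genes were chosen and are no evidence about the group. For 5 of the 7 genes the difference was under 0.5 on the log2 scale.

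**Figure D2:**
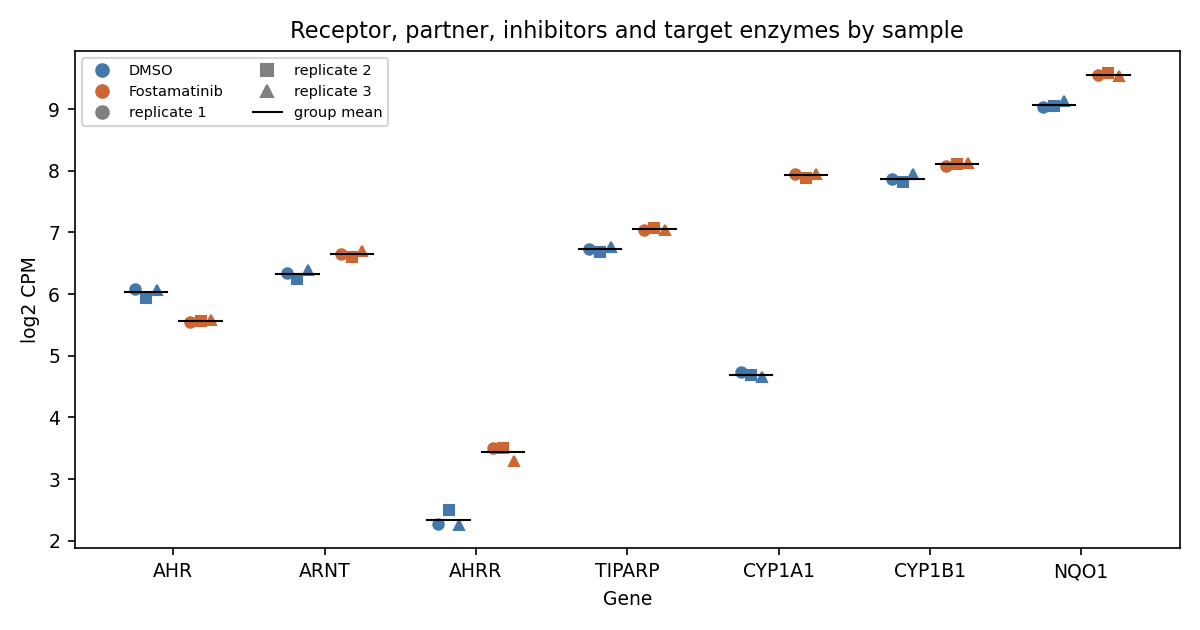
Level of each gene of the receptor group in each sample, in log2 CPM on the y axis. Blue points are DMSO, orange points are fostamatinib, marker shapes are replicates and black lines are group means. The groups do not overlap for any of the 7 genes, and the widest gap is that of CYP1A1, from 4.73 in the highest DMSO sample to 7.89 in the lowest fostamatinib sample.

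AHR, the receptor itself (ENSG00000106546, chr7:16955983-17385776, plus strand), was measured at 6.09, 5.93 and 6.06 log2 CPM in DMSO replicates 1 to 3 and at 5.55, 5.56 and 5.58 with fostamatinib. Every fostamatinib sample lay below every DMSO sample, by at least 0.35. The means were 6.03 ± 0.085 and 5.57 ± 0.014 (SD, n = 3 each), a log2 fold change of -0.46 (SE 0.057), so that the transcript was present at 0.727 times its DMSO level. The reads behind these values were 930 to 991 per DMSO sample and 634 to 674 per fostamatinib sample. The annotated gene begins far upstream of the RefSeq start, which is at position 17338276.

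ARNT, with which AHR pairs to bind DNA (ENSG00000143437, chr1:150782189-150849184, minus strand), moved the other way. It was at 6.34, 6.24 and 6.39 log2 CPM with DMSO and at 6.65, 6.60 and 6.70 with fostamatinib. All fostamatinib samples were higher, with a gap of 0.21 between the groups. The log2 fold change was 0.33 (SE 0.05), or 1.25-fold. Per kilobase of transcript, the AHR level was 0.568, 0.546 and 0.539 times the ARNT level in the DMSO samples and 0.317, 0.33 and 0.312 times with fostamatinib. The receptor was thus the less abundant transcript of the pair in all 6 samples, and more so after fostamatinib.

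AHRR encodes the AHR repressor, which competes with AHR for ARNT and for DNA (ENSG00000063438, chr5:321829-438406, plus strand). It was the least abundant gene of the group, at 2.27, 2.49 and 2.25 log2 CPM with DMSO and 3.51, 3.50 and 3.30 with fostamatinib. The reads were 66, 85 and 70 with DMSO and 156, 161 and 130 with fostamatinib. The groups were well separated despite the low counts. The log2 fold change was 1.10 (SE 0.129), or 2.15-fold, with the largest standard error of the 7 genes. In the annotation AHRR overlaps PDCD6-AHRR, a readthrough transcript on the same strand that shares its exons, so how reads were split between them is uncertain. PDCD6, the upstream gene of that readthrough, had a log2 fold change of 0.14. Per kilobase, AHR was 11.5, 8.85 and 11.4 times as abundant as AHRR in the DMSO samples and 3.36, 3.4 and 3.96 times with fostamatinib.

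TIPARP is a mono-ADP-ribosyltransferase that modifies AHR and limits its activity (ENSG00000163659, chr3:156391024-156424559, plus strand). It was at 6.73, 6.68 and 6.76 log2 CPM with DMSO and at 7.04, 7.07 and 7.04 with fostamatinib. The fostamatinib samples were all higher, and the replicates of each group lay close together. The log2 fold change was 0.33 (SE 0.045), or 1.25-fold; AHRR, the other feedback inhibitor, was at 1.10.

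CYP1A1, the monooxygenase that oxidises polycyclic hydrocarbons and is the usual readout of AHR activity (ENSG00000140465, chr15:75011883-75017877, minus strand), was at 4.73, 4.68 and 4.66 log2 CPM with DMSO and at 7.95, 7.89 and 7.94 with fostamatinib. In reads this was 365, 392 and 376 against 3410, 3375 and 3265. The 3 replicates of each group agreed closely, and the lowest fostamatinib sample was 8.93 times the highest DMSO sample in CPM. The means were 4.69 ± 0.034 and 7.93 ± 0.036 (SD, n = 3 each), a log2 fold change of 3.24 (SE 0.05) or 9.42-fold. Of the 16305 genes, 19 had a larger log2 fold change. No other annotated gene overlaps CYP1A1, whereas each of the other analysed genes of the group is overlapped by at least 1.

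CYP1B1, a related monooxygenase that also metabolises oestrogens (ENSG00000138061, chr2:38294116-38337044, minus strand), had the smallest difference of the group. It was at 7.86, 7.81 and 7.95 log2 CPM with DMSO and at 8.07, 8.11 and 8.13 with fostamatinib. The groups did not overlap, but the gap between them was only 0.12. The log2 fold change was 0.23 (SE 0.04), or 1.17-fold. RMDN2 and CYP1B1-AS1 overlap CYP1B1 on the other strand. RMDN2-AS1 overlaps it on the same strand and was not among the analysed genes. RMDN2 had 75.7 and 91.7 mean reads with DMSO and fostamatinib, with a log2 fold change of 0.38 (adjusted p = 0.0332), and CYP1B1-AS1 had 15.3 and 20.0, against 3200 to 3925 reads per sample for CYP1B1. The call for RMDN2 was lost without DMSO replicate 1 (0.25, adjusted p = 0.199), fostamatinib replicate 1 (0.32, adjusted p = 0.122) or fostamatinib replicate 2 (0.38, adjusted p = 0.068). Libraries were made with a directional kit, but whether strand was used in counting is not given in the sources used here.

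The 2 CYP1 genes changed places. Per kilobase, CYP1A1 was at 0.228, 0.229 and 0.204 times the level of CYP1B1 in the DMSO samples, and at 1.84, 1.72 and 1.76 times with fostamatinib. CYP1B1 was thus the more abundant transcript in every DMSO sample and CYP1A1 in every fostamatinib sample.

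NQO1, a quinone reductase that protects cells from redox cycling (ENSG00000181019, chr16:69740899-69760571, minus strand), was the most abundant gene of the group. It was at 9.03, 9.05 and 9.13 log2 CPM with DMSO and at 9.55, 9.58 and 9.54 with fostamatinib. All fostamatinib samples were higher, and their spread was small, with SDs of 0.057 and 0.025 for DMSO and fostamatinib. The log2 fold change was 0.49 (SE 0.035), or 1.40-fold. With 7183 to 10934 reads per sample it was also the gene measured with the most reads.

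Levels of different genes were compared as CPM per kilobase of the longest annotated transcript. With DMSO the order of the mean levels (± SD, n = 3) was NQO1 at 213 ± 8.33, CYP1B1 at 45.0 ± 2.25, TIPARP at 25.3 ± 0.7, ARNT at 17.0 ± 0.917, CYP1A1 at 9.92 ± 0.251, AHR at 9.38 ± 0.55 and AHRR at 0.893 ± 0.084. CYP1A1 and AHR overlapped in that group, and their order turned when all annotated exons were merged to give the length, at 7.69 and 8.11. The other neighbours in the order did not overlap. With fostamatinib CYP1A1 stood second at 93.5 ± 2.33, behind NQO1 at 298 ± 5.29 and ahead of CYP1B1 at 52.7 ± 0.954, TIPARP at 31.7 ± 0.346, ARNT at 21.3 ± 0.7, AHR at 6.81 ± 0.0656 and AHRR at 1.92 ± 0.153. No neighbours in this order overlapped. CYP1A1 thus moved from the fifth to the second place, and the other 6 genes kept their order among themselves.

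**Figure D3:**
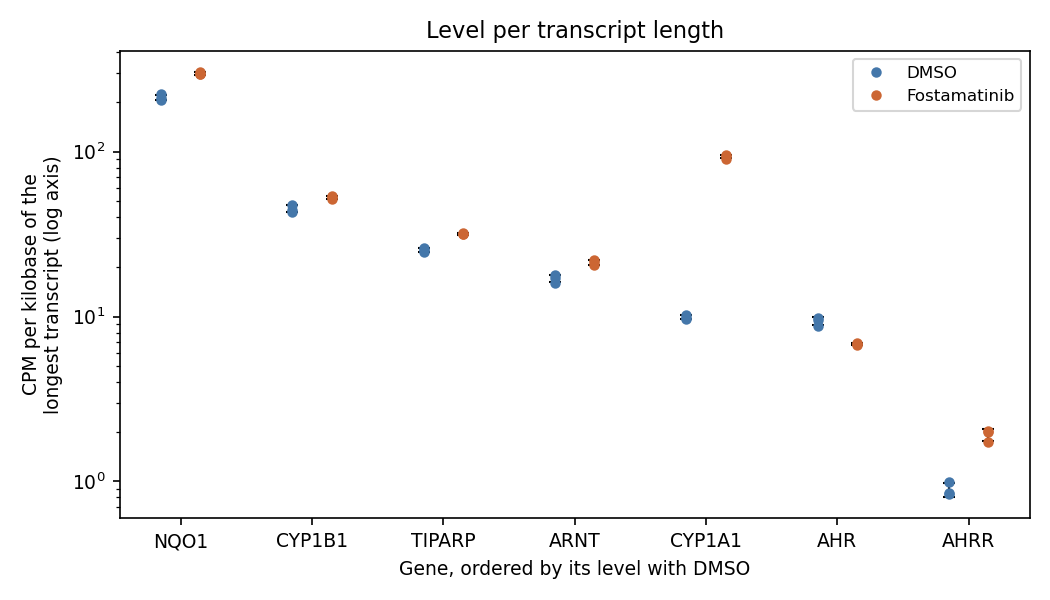
Level of each gene of the receptor group per kilobase of its longest transcript, in CPM per kilobase on a log axis, ordered by the level with DMSO. Points are samples (blue DMSO, orange fostamatinib) and bars are 1 SD around the mean of 3 samples. CYP1A1 moves from 9.92 to 93.5, past ARNT, TIPARP and CYP1B1.

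The genes whose log2 values followed CYP1A1 most closely over the 6 samples were MUC13, CIDEB, HNF4A, SERPINA5 and SLC25A42, with Pearson correlations of 0.99994, 0.99985, 0.99971, 0.99963 and 0.99957. MUC13 encodes a cell surface mucin, HNF4A a transcription factor of hepatocytes and SERPINA5 a secreted protease inhibitor. Their log2 fold changes were 3.31 for MUC13, 2.14 for CIDEB, 1.02 for HNF4A, 1.26 for SERPINA5 and 1.56 for SLC25A42. The correlation is dominated by the step between the groups, which the points share: of 11718 genes that averaged 50 or more reads in 1 of the groups, 369 had a correlation above 0.99 and 494 one below -0.99. None of the other genes of the receptor group was among them, with correlations of 0.988 for TIPARP, 0.987 for NQO1, 0.982 for AHRR, 0.954 for ARNT, 0.93 for CYP1B1 and -0.976 for AHR.

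Analysed genes whose start lies within 200 kb of a member's start, or that overlap a member, were examined as well. Around CYP1A1 there were 8 such genes, and their log2 fold changes ran from -0.14 to 0.29, against 3.24 for CYP1A1. Of these, 3 were called higher (SCAMP2 at 0.22, EDC3 at 0.16 and CLK3 at 0.29) and 5 were not called. EDC3, whose start is the nearest of the 8 at 29.5 kb, had 672.0 and 705.7 mean reads with DMSO and fostamatinib. Its call was lost without DMSO replicate 1 (adjusted p = 0.0887) or 3 (0.0525) or fostamatinib replicate 1 (0.0699) or 2 (0.091). CYP1A2, which was not analysed, starts closer to CYP1A1, at 23.3 kb. Around ARNT, by contrast, 8 of 13 neighbours were called higher and 2 lower, with log2 fold changes from -0.75 to 1.56, so that ARNT at 0.33 was inside the range of its neighbours. AHRR at 1.10 was above its 9 neighbours, of which the highest, the long noncoding RNA SLC9A3-AS1, was within 1 standard error of it at 1.05 (30.7 and 60.3 mean reads). Over all 7 genes there were 43 neighbours, of which 19 were called higher, 5 lower and 19 were not called. Among all 16305 genes 23.3% were called higher and 24.5% lower, and whether the neighbours differ from other genes was not tested.

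**Figure D4:**
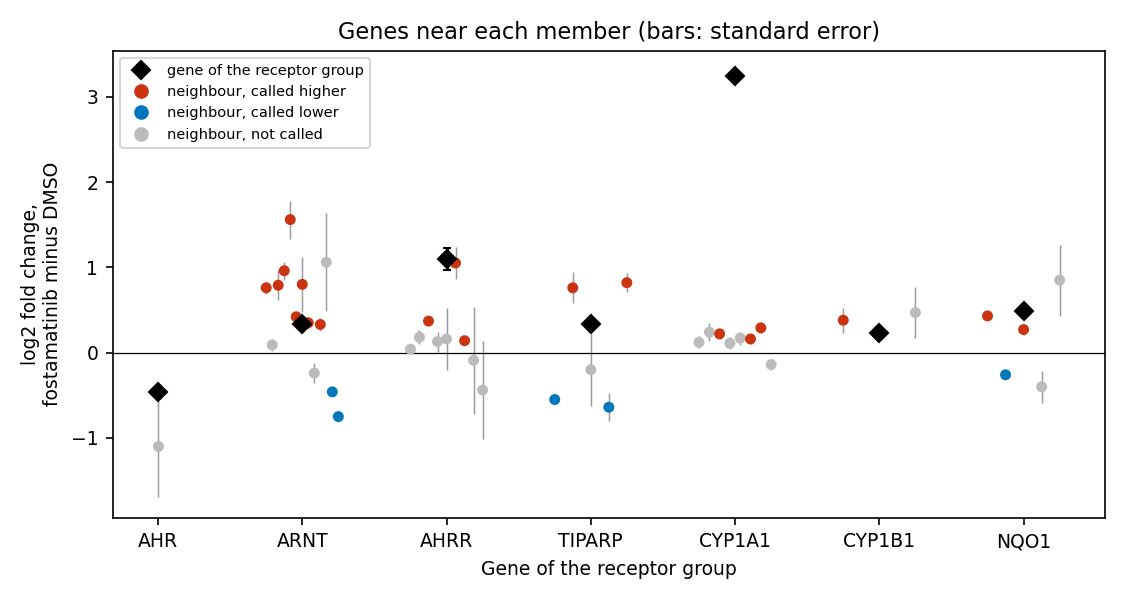
Log2 fold change (fostamatinib minus DMSO, y axis) of the 7 genes of the receptor group (black diamonds) and of analysed genes near them (circles). Circles are red where called higher, blue where called lower and grey where not called, and bars are 1 standard error. Circles are spread sideways only to keep them apart. CYP1A1 at 3.24 lies far above its 8 neighbours, while ARNT lies among its own.

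Of the 6 genes of the cytoplasmic complex that holds the receptor, 4 fell, 1 rose and 1 was not called. Their median log2 fold change was -0.17 against 0.002 for all genes. Among all genes 24.5% were called lower and 23.3% higher, and the counts of the lists below stand beside these same shares. PTGES3, the HSP90 co-chaperone p23, fell by 0.48 on the log2 scale (SE 0.04, limma adjusted p = 1.76e-12), with 5901.3 mean reads with DMSO and 3969.0 with fostamatinib. HSP90AB1 fell by 0.29 (adjusted p = 2.57e-09), CDC37 by 0.22 (adjusted p = 2.71e-05) and HSP90AA1 by 0.12 (adjusted p = 0.00219). The call for HSP90AA1 was lost without a mean-variance trend in the model (adjusted p = 0.0812). The co-chaperone DNAJC7 had a log2 fold change of -0.07 (adjusted p = 0.236).

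Of 14 symbols of bHLH-PAS relatives and partners, some of them older and newer names of the same gene, 8 were analysed. Of these, 3 fell, 1 rose and 4 were not called, with a median of -0.17. ARNTL2, a relative of the clock factor BMAL1, fell by 1.16 on the log2 scale (SE 0.075, adjusted p = 2.44e-15). HIF1A, the hypoxia-inducible factor that also pairs with ARNT, fell by 1.01 (SE 0.035, adjusted p = 6.56e-23), from 10193.7 to 4746.0 mean reads. ARNTL was called higher at 0.35 (adjusted p = 0.0255), but without fostamatinib replicate 2 it was at 0.24 (adjusted p = 0.199), without DMSO replicate 2 at 0.31 (adjusted p = 0.0866) and without DMSO replicate 3 at 0.34 (adjusted p = 0.0513). Without a trend its adjusted p was 0.0798.

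All 12 coactivators and corepressors were analysed, of which 5 rose, 3 fell and 4 were not called, with a median of 0.07. NCOA7 had the largest change and fell by 0.81 on the log2 scale (SE 0.048, adjusted p = 2.55e-16). The acetyltransferase EP300 rose by 0.20 (adjusted p = 0.000304) and MED1, a Mediator subunit, rose by 0.20 (adjusted p = 0.00038).

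Other genes reported as AHR targets moved in both directions, as did genes in general (23.3% of all genes called higher and 24.5% lower). Of 24 listed, 17 were analysed, of which 6 rose, 6 fell and 5 were not called, with a median of 0.05. The largest rises were those of GSTA1 and GSTA2, glutathione transferases. GSTA2 went from 9.0 to 128.7 mean reads, a log2 fold change of 3.87 (SE 0.222, adjusted p = 1.07e-16), and GSTA1 from 5.0 to 76.0, at 4.03 (SE 0.322, adjusted p = 7.21e-13). The genes are near-identical copies, so how reads were divided between them is uncertain, and their low DMSO counts make the size of the fold change imprecise. The prostaglandin synthase PTGS2 fell by 1.39 (SE 0.057, adjusted p = 9.9e-21) and the amino acid transporter SLC7A5 by 1.01 (SE 0.042, adjusted p = 1.05e-20). UGT1A1 and UGT1A6, which share exons and are likewise uncertain, were at 0.20 (adjusted p = 0.248) and 0.75 (adjusted p = 0.00602), named here after their values were seen. Without DMSO replicate 2, UGT1A6 was at 0.54 (adjusted p = 0.0556).

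**Figure D5:**
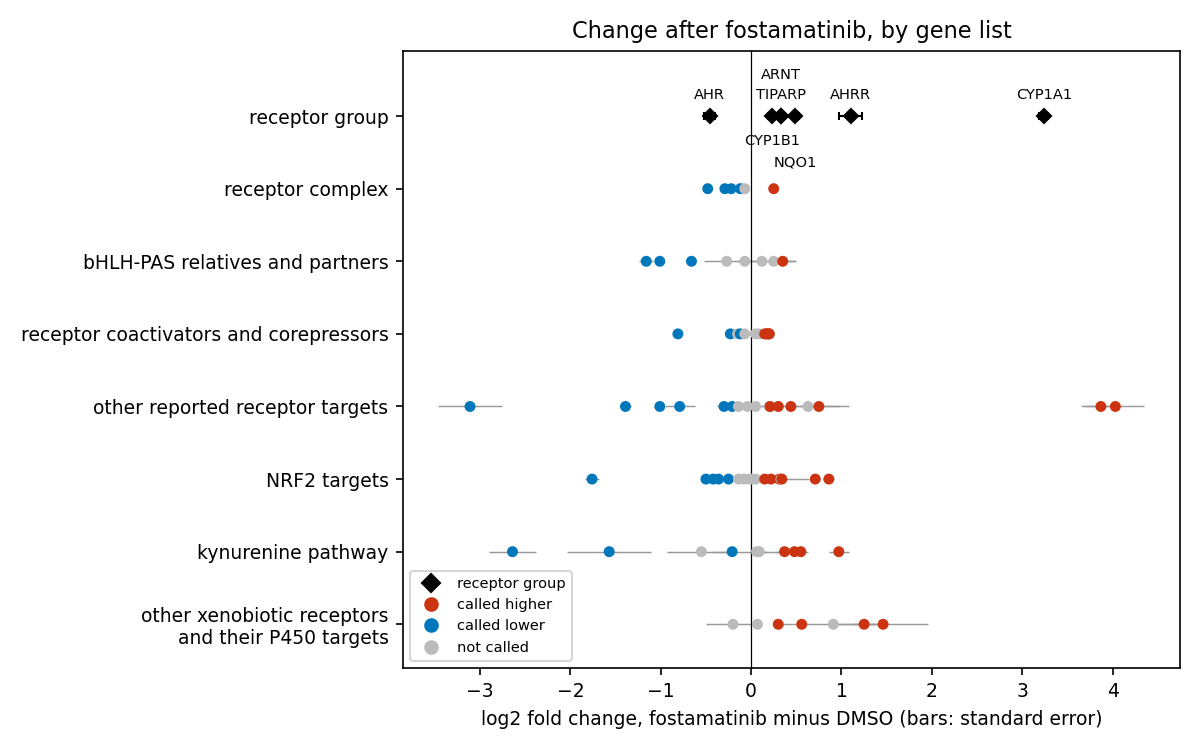
Log2 fold change (fostamatinib minus DMSO, x axis) of the 7 genes of the receptor group (black diamonds, named) and of the genes of 7 other lists of the pathway (circles, red called higher, blue called lower, grey not called), with bars of 1 standard error. CYP1A1 is at 3.24, and the other reported targets spread from -3.11 to 4.03.

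NQO1 is also a target of NRF2, and the other NRF2 targets were called in both directions, as were genes in general (23.3% of all genes higher and 24.5% lower). Of 17 genes 6 rose, 5 fell and 6 were not called, with a median of 0.01. The efflux pumps ABCC2 and ABCC3 rose by 0.86 (SE 0.061, adjusted p = 2.82e-14) and 0.71 (SE 0.054, adjusted p = 2.5e-13). The cystine transporter SLC7A11 fell by 1.76 (SE 0.073, adjusted p = 1.05e-20) and the malic enzyme ME1 by 0.50 (SE 0.055, adjusted p = 1.1e-09). NQO1 at 0.49 lay between these.

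The kynurenine pathway degrades tryptophan and yields ligands of AHR. Of 15 symbols, older and newer names included, 10 were analysed, of which 4 rose, 3 fell and 3 were not called, with a median of 0.07. KMO, which hydroxylates kynurenine, fell by 2.64 on the log2 scale (SE 0.259, adjusted p = 1.21e-10), from 63.3 to 9.3 mean reads. KYNU, which is also in the list of reported AHR targets, fell by 0.21 (adjusted p = 3.71e-05). HAAO rose by 0.97 (SE 0.111, adjusted p = 3.57e-09) and AFMID, which makes kynurenine from its formyl precursor, by 0.55 (SE 0.084, adjusted p = 1.23e-06).

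Of 12 genes of the other xenobiotic receptors and their P450 targets, 7 were analysed, of which 4 rose, none fell and 3 were not called, with a median of 0.56. CYP3A5 rose by 1.25 on the log2 scale (SE 0.12, adjusted p = 7.04e-11) and RXRA, the partner of the pregnane and constitutive androstane receptors, by 0.56 (SE 0.057, adjusted p = 1.98e-10). The hepatocyte marker genes had a similar median, at 0.55, with HNF4A at 1.02 (adjusted p = 8.4e-22) and APOA1 at 3.19 (adjusted p = 1.79e-18). Among the markers of other cell types, which had a median of 0.25, PDGFRB was at 0.95 (adjusted p = 0.000141) and PECAM1 at 0.51 (adjusted p = 0.000837).

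The number of cores near the start was also set against the calls of all analysed genes with a placed promoter. Of 5115 genes with 0 cores in the 300 bases from 250 before to 50 after the start, 28.6% were called higher and 26.6% lower. Of 75 genes with 5 or more cores, 14.7% were called higher and 36.0% lower. The GC content of the window moved with the number of cores, with medians of 62.7% and 71.3%, and its part in this was not tested. In this shorter window CYP1A1, AHR, AHRR and NQO1 each held 1 core, TIPARP held 2, and ARNT and CYP1A2 held 0, while 44.3% of all promoters held at least 1. The cores of AHRR and NQO1 in it lay within the longer motif TNGCGTG, which 6.55% of promoters held at least once in this window.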

How the data were processed

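RNA-seq was analysed for 3 fostamatinib and 3 DMSO samples of Huh7SR cells. Per the study's methods and the labels, the authors aligned reads to hg19 (HISAT), obtained gene counts (featureCounts), removed genes with few reads and applied TMM normalization. The deposited values are log2 CPM with 0.5 added to each read count. A gene listed on 7 rows with the same values was used once. Reads were recovered from the log2 values, of which 100% lay within 0.05 of a whole number. Treatment was the single term of a limma fit over all 16305 genes (version 3.58.1, R 4.3.3; lmFit, then eBayes with a mean-variance trend), and genes with a Benjamini-Hochberg adjusted p under 0.05 were called. The script was tested on simulated data. Tables and figures used Python 3.11.15 with pandas 2.3.3 and matplotlib 3.10.9. Positions and lengths were from GENCODE version 44 mapped to GRCh37, which held 98.7% of the gene identifiers. Starts were from RefSeq promoter sequences (GRCh38.p14) matched to GRCh37.

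The members and lists were chosen with earlier results of these data known. The rule for naming took all members, the complex that holds the receptor, called genes overlapping a member, the 5 genes most correlated with CYP1A1 and, per list, the 2 called genes highest and the 2 lowest in log2 fold change, given 50 or more mean reads in 1 of the groups. Other genes are named for a range or a count, after their values were seen. Some genes that meet the rule for naming are left out of this account. The alternatives were other scalings, filters and pseudocounts, no trend, limma-voom, a replicate block, leaving out each sample, a longer promoter window and merged exons. With 13303451 to 15272737 reads per sample, counting error is large only for genes with few reads, and precision is limited by having 3 samples per group.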

Additional observations from a re-analysis of the deposited data

How the results depend on the processing

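All 7 genes of the receptor group kept their direction and call under the 14 alternative fits, with log2 fold changes of 1.06 to 1.18 for AHRR, 0.28 to 0.36 for ARNT and -0.51 to -0.43 for AHR. The count of genes called and more than 2-fold higher was 627 and dropped to 287 when at least 10 reads were required in every sample, a filter that removes genes low in 1 group, GSTA1, GSTA2 and KMO among the named ones. Leaving out each sample gave 543 to 634 such genes, 3306 to 3676 genes called higher and 3634 to 3804 called lower. Of the named genes, HSP90AA1, ARNTL, RMDN2, EDC3 and UGT1A6 lost their call under the settings given above. Without a trend RMDN2, SCAMP2, EDC3 and APOB also lost theirs (adjusted p from 0.05 to 0.0916) and CYP1B1-AS1 passed (0.0421). In that setting the limma adjusted p of PTGS2 went from 9.9e-21 to 0.000115 and that of HIF1A from 6.56e-23 to 0.00022. PDCD6 lost its call without DMSO replicate 1 or any 1 of the fostamatinib samples, with its log2 fold change at 0.14 in each. Levels per length were lower with merged exons for all 7 genes, and core counts differed between the promoter windows for the 7 genes with a placed start, as given above.

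The samples share replicate numbers, but the numbers did not pair them: the deviations of same-numbered samples correlated at 0.036, -0.021 and 0.037, and 1 of 3 numbers correlated best with its own. With the replicate block 3879 genes were called higher and 4098 lower, against 3795 and 3999 without it, and no call of the receptor group changed. Genes with few reads, such as GSTA1, carry the largest errors.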
